A study of Rattus norvegicus with 30 samples.

Results

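Changes in the ganglia at 7 d were read from 6 arrays of L4–6 dorsal root ganglia (DRG), 3 taken 7 d after resection of the sciatic nerve and 3 taken at 0 d, chosen by their sample titles out of 30 arrays in the series. All 6 came from adult male Sprague-Dawley rats of 180–220 g. At 7 d a 1 cm segment of the left sciatic nerve had been removed at mid-thigh, and the 0 d group is the control. The labels describe 30 rats in 5 groups of 6, do not state how many animals an array holds, and do not name the side of the ganglia or say whether the nerve was exposed in the 0 d rats. P-values therefore measure the spread between these arrays, which may in part be technical. The other arrays used here are those of DRG at 1, 4 and 14 d and of the proximal sciatic nerve (SN, pieces of 0.5 cm) at 0 and 7 d, again 3 each.

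A ganglion holds the cell bodies of sensory neurons, each wrapped by satellite glia, with Schwann cells, vessels, fibroblasts and resident macrophages between them. When the peripheral axon is cut, injured neurons are known to switch from a transmitting to a growing state, in which transcription factors such as Atf3 and Jun are induced, growth-associated proteins are made, and the set of neuropeptides and ion channels is changed. Only part of the neurons of these ganglia send axons into the sciatic nerve, so that the RNA is a mixture of injured and spared cells.

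The arrays measure each transcript by the brightness of a probe, given here as a normalized signal on the log2 scale on which 0 is the 75th percentile of the array, so that 1 unit is a 2-fold difference. Per array, 26914 to 32586 probes at 0 d and 33947 to 34256 at 7 d were well above background. All 11 sensory neuron markers on the array were well above background in both groups, and their summed linear signal was 984 to 1000 at 0 d and 824 to 893 at 7 d. In bulk tissue fewer cells of a type and less RNA per cell cannot be told apart. Markers of muscle and bone were also detected and were highest on single 0 d arrays. The sum of 7 skeletal muscle markers was 23.4 to 183 at 0 d, highest on array 2, and 25.0 to 43.6 at 7 d, and that of 9 bone and cartilage markers was 20.3 to 81.8 at 0 d, highest on array 1, and 11.8 to 18.2 at 7 d.

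At 7 d many more transcripts were higher than lower. Of 34968 probes tested, 2302 (6.58%) were called up and 114 (0.326%) called down, where a call is a change over 2-fold with an adjusted p under 0.05 (limma, Benjamini-Hochberg). Among the rises, 2222 were between 2- and 10-fold, 60 between 10- and 50-fold and 20 over 50-fold, and all 114 falls were under 10-fold. By distinct gene symbol, 1013 of 12934 were up and 61 down. Most rises began at the dim end of the scale. Of the 2302, 1608 lacked a signal well above background on 1 or more of the 0 d arrays, and 682 on each of the 3. Among the 26635 probes well above background on all 6 arrays, 694 were up and 93 down, and the median change was 0.01 against 0.08 over all tested probes.

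**Figure D1:**
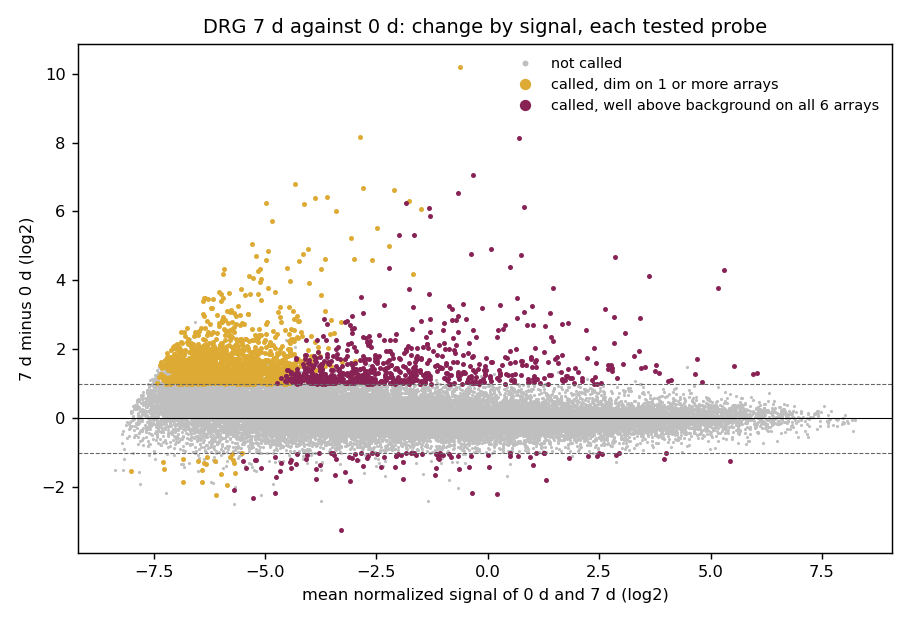
Change from 0 d to 7 d (log2, vertical) against the mean normalized signal of both groups (log2, horizontal) for each of 34968 tested DRG probes, with dashed lines at 2-fold. The dim called probes lie almost wholly above 0, whereas called probes well above background on all 6 arrays number 694 above and 93 below.

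The size of this imbalance depended on the probe filter and on the scaling. Without a filter, 2188 of 41012 probes were up and 351 down, so that 86.2% of the calls were rises. With quantile normalization 1477 probes were up and 300 down, with the authors' matrix 1463 and 324, and with normexp background correction and the 75th percentile 463 and 35. The share of rises among the calls was 95.3% in the fit used here, 83.1% with quantile normalization, 81.9% with the authors' matrix and 93.0% with normexp. The median change over all probes moved from 0.08 to -0.02 with quantile normalization. The 0 d arrays were scanned on another day than those of 7 d, and slide and scan day cannot be told apart from the time point.

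Neuropeptides, the messenger peptides of sensory neurons, held the 2 largest rises among named genes well above background on all 6 arrays. Of 21 tested genes, precursors except for the receptor Gpr83, 9 rose and 1 fell, with 11 not called. The median change was -0.09 against 0.08 over all probes, and 9 were up when any 1 of the 6 arrays was left out. In the values that follow, the 3 arrays of a group are given in the order of their replicate numbers, and "before" stands for 0 d. Vip, vasoactive intestinal peptide, had a normalized signal of -2.97, -4.05 and -3.07 before and 4.96, 4.75 and 4.61 at 7 d, a rise of 281-fold (log2 change 8.13 ± 0.26 SE, adjusted p = 1.13e-09). Ucn, urocortin, of the corticotropin-releasing hormone family, read -3.82, -4.0 and -3.79 before and 3.43, 3.1 and 3.01 at 7 d, a rise of 133-fold (log2 change 7.05 ± 0.17 SE, adjusted p = 1.09e-10). For both genes the 3 arrays of each group lay within about 1 unit of each other and far from the other group.

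Gal, galanin, read 3.2, 3.11 and 3.13 before and 7.43, 7.56 and 7.39 at 7 d, a rise of 19.9-fold (log2 change 4.32 ± 0.13 SE, adjusted p = 7.28e-10). Npy, neuropeptide Y, spread widely at 0 d, with 2.25, 4.2 and 3.36 before and 7.11, 7.13 and 6.94 at 7 d, and still rose 13.8-fold (log2 change 3.79 ± 0.46 SE, adjusted p = 0.000148). Adcyap1, the precursor of PACAP, read 1.71, 1.79 and 1.73 before and 4.07, 3.99 and 3.73 at 7 d and rose 4.55-fold (log2 change 2.19 ± 0.12 SE, adjusted p = 2.09e-07). None of these genes overlapped between the groups. Cck, cholecystokinin, rose 3.51-fold from -2.65, -2.35 and -2.49 to -0.57, -0.74 and -0.75 (adjusted p = 3.65e-07), and Nts, neurotensin, 4.02-fold from a spread of -1.11, -2.01 and -2.52 to 0.2, 0.04 and 0.15 (adjusted p = 0.0013). Pdyn, the precursor of dynorphin, was well above background on 1 of 3 arrays at 0 d and rose (adjusted p = 1.44e-08), with a log2 change of 5.23 that ranged from 3.41 to 5.39 over the settings tried. Grp, gastrin-releasing peptide, was not well above background at 0 d and was called up (adjusted p = 0.0111), without a lower bound above 1-fold.

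The peptides of intact nociceptors moved little by comparison. Calca, encoding CGRP, read 6.82, 6.9 and 6.89 before and 6.28, 6.56 and 6.62 at 7 d on its brightest probe, a log2 change of -0.38 (adjusted p = 0.061). Its other tested probes gave -0.82 (adjusted p = 0.00013) and -0.02 (adjusted p = 0.939), also without a call. Tac1, the precursor of substance P, read 5.54, 5.51 and 5.44 before and 4.77, 4.92 and 4.82 at 7 d, a change of -0.66 that had an adjusted p of 0.000647 but did not reach 2-fold, and Sst, somatostatin, changed by -0.28 (adjusted p = 0.0886). The 3 arrays at 7 d lay below those at 0 d for all of Calca, Tac1 and Sst. The 1 fall was Penk, the enkephalin precursor, from -1.24, -0.99 and -0.83 to -2.65, -2.82 and -2.87 (-1.76 ± 0.23, adjusted p = 0.000208). Its other tested probe was dimmer, with a mean signal of -5.63 over all DRG arrays against -2.14. That probe gave 1.05 without a call (adjusted p = 0.118), so that the direction for Penk rests on the choice of probe. Among 23 tested neuropeptide receptors, Cckbr, a receptor for cholecystokinin, was well above background on 2 arrays at 0 d and read -4.49, -5.2 and -4.46 before and 0.37, 0.38 and 0.09 at 7 d, a rise of 31.9-fold (log2 change 5.0 ± 0.17 SE, adjusted p = 2.44e-09). Over the settings tried the log2 change of Cckbr ranged from 3.486 to 5.123. Sstr4, a somatostatin receptor, rose 2.52-fold and Sstr1, another, fell 2.21-fold (adjusted p = 3.50e-05 and 0.000393), and 20 were not called. Neither Sstr4 nor Sstr1 was called in the settings with normexp background correction.

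**Figure D2:**
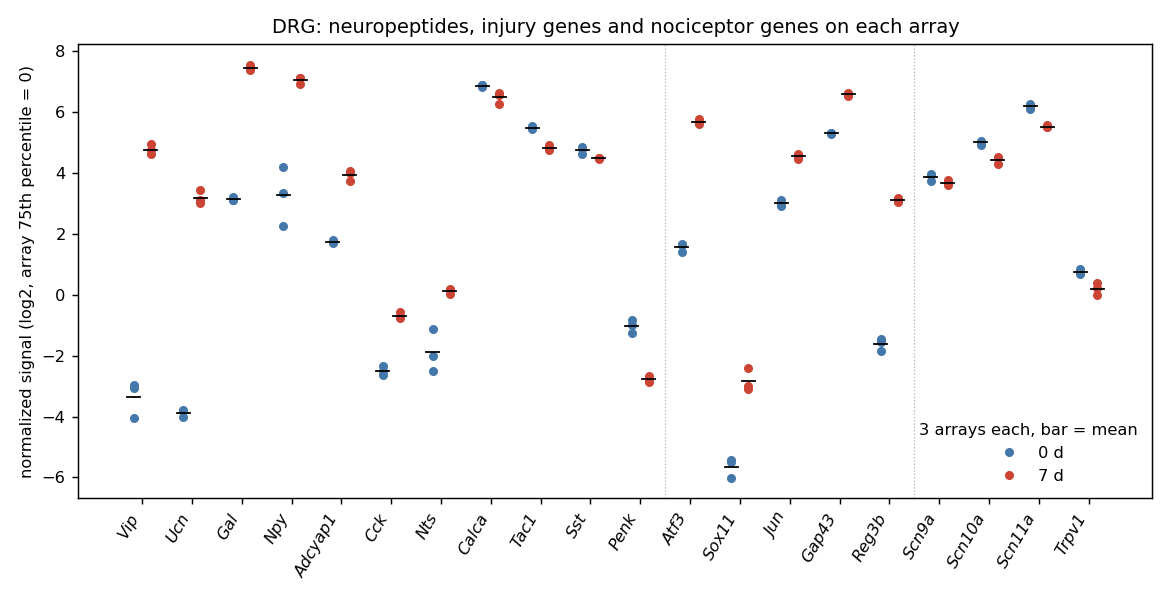
Normalized signal (log2, vertical) of 20 genes on each of the 3 arrays at 0 d (blue) and 7 d (red), with bars at the group means, for neuropeptides, injury and growth genes, and nociceptor genes from left to right. Vip, Ucn, Gal, Atf3 and Reg3b moved up by over 4 units, while Calca, Tac1, Scn10a and Scn11a at 7 d lay less than 1 unit below 0 d.

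Of the 9 raised neuropeptide genes 8 have a window of 250 bases before the transcription start in the RefSeq promoter table (GRCr8). The 4 with the largest rises that were also well above background on all 0 d arrays are shown. Each is given 5′ to 3′ on the strand of its gene, with the core of the cAMP response element (TGACG on either strand) in capitals.
Vip, chr1:44470230-44470479 (plus strand):
Vip: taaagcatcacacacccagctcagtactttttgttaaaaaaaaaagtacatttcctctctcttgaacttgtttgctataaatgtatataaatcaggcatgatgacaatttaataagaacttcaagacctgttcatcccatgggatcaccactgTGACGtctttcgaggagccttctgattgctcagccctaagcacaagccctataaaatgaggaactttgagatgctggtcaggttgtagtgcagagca
Ucn, chr6:30957836-30958085 (plus strand):
Ucn: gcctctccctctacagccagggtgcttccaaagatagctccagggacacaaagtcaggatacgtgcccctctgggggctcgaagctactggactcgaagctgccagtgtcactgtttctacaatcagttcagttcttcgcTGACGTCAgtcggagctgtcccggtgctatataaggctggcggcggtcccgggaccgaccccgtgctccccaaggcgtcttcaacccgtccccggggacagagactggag
Gal, chr1:210084573-210084822 (minus strand):
Gal: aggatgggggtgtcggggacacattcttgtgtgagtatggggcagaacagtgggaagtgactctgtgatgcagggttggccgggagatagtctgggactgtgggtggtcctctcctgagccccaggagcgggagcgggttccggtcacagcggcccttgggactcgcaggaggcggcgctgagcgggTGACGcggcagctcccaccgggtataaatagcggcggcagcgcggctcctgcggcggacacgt
Npy, chr4:80211861-80212110 (plus strand):
Npy: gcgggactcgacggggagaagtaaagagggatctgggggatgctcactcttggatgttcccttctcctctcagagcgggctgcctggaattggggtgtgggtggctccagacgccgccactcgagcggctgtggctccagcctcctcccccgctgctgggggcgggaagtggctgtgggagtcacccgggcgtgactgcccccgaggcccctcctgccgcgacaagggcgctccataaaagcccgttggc
The first base of the core lay 97 bases before the start in Vip, 110 in Ucn, where the whole element TGACGTCA stands, and 63 in Gal, and these letters are not in the Npy window. Over the 8 windows 5 held TGACG, namely those of Vip, Ucn, Gal, Nts and Grp, against 18.2% of all 33469 windows of the table. TGACGTCA, which includes TGACG, was held by 1 of 8 against 1.59%, TGACTCA, the AP-1 motif, by 1 of 8 (Nts) against 4.05%, and TTCNNNGAA, the STAT motif, by 0 of 8 against 7.67%. These are matches of letters and were not tested as sites.

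Among 35 tested transcription factors known from axotomized neurons 12 rose, none fell and 23 were not called, with a median change of 0.57 against 0.08 over all probes. Atf3, a stress-induced bZIP factor, read 1.4, 1.63 and 1.67 before and 5.61, 5.79 and 5.67 at 7 d, a rise of 17.5-fold (log2 change 4.13 ± 0.12 SE, adjusted p = 5.25e-10). Jun, its partner in AP-1 dimers, was brighter before injury and rose 2.94-fold, from 2.93, 2.94 and 3.13 to 4.63, 4.57 and 4.47 (adjusted p = 3.52e-06). Both genes had no overlap between the groups.

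Sox11, a factor of axon growth, was well above background on 1 array at 0 d and read -5.44, -6.01 and -5.49 before and -2.42, -2.99 and -3.1 at 7 d, a log2 change of 2.81 ± 0.23 SE (adjusted p = 6.21e-06) that ranged from 1.34 to 2.94 over the settings tried. Csrp3, the muscle LIM protein, read -3.73, -0.88 and -2.13 before and 3.91, 3.89 and 3.88 at 7 d, a rise of 70.6-fold (log2 change 6.14 ± 0.49 SE, adjusted p = 4.09e-06). The highest 0 d value of Csrp3 was on array 2, which also had the highest muscle markers. The median change of the 7 muscle markers was -0.77, and 0.02 without that array, and their part in the values of Csrp3 was not tested. Ankrd1, a nuclear ankyrin-repeat protein, rose 13.4-fold (adjusted p = 1.64e-05). Nfil3 and Arid5a rose 3.26- and 2.74-fold (adjusted p = 2.78e-05 and 0.000109). Maff was not well above background at 0 d and rose at least 1.05-fold (adjusted p = 0.000123), where "at least" sets the 7 d mean against the higher, per 0 d array, of the lowest signal well above background and the gene's own. Such a bound holds only for the scaling used here. The log2 change of Maff ranged from 0.28 to 1.96 over the settings tried, without a call in the normexp settings. The remaining called factors were Fosl1, Smad1, Crem and Fosb.

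Of 39 tested growth-associated genes 12 rose, none fell and 27 were not called, with a median of 0.42. Reg3b, a secreted lectin of regenerating tissue, read -1.86, -1.46 and -1.55 before and 3.1, 3.18 and 3.05 at 7 d, a rise of 26.6-fold (log2 change 4.73 ± 0.13 SE, adjusted p = 4.79e-10). Ecel1, a neuronal endopeptidase-like protein, was well above background on 2 arrays at 0 d and rose 24.1-fold, from -5.18, -4.89 and -4.61 to -0.15, -0.36 and -0.4 (adjusted p = 2.91e-09). Over the settings tried the log2 change of Ecel1 ranged from 3.247 to 4.73. Arg1, arginase of the polyamine route, read -1.68, -1.7 and -1.7 before and 2.73, 2.75 and 2.58 at 7 d, a rise of 20.8-fold (log2 change 4.38 ± 0.18 SE, adjusted p = 1.14e-08). The arrays of a group lay within 0.6 units of each other for these genes.

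Gap43, the growth cone protein, was already among the bright genes and read 5.28, 5.31 and 5.3 before and 6.61, 6.62 and 6.53 at 7 d, a rise of 2.44-fold (log2 change 1.29 ± 0.1 SE, adjusted p = 2.36e-06). Cacna2d1, the calcium channel subunit that binds gabapentin, read 4.74, 4.78 and 4.79 before and 6.31, 6.27 and 6.31 at 7 d and rose 2.88-fold (adjusted p = 4.23e-07). Flrt3, a membrane protein of neurite growth, rose 7.69-fold, Stmn4, a tubulin-binding protein, 6.74-fold, Fgf2, a fibroblast growth factor, 6.01-fold and Gadd45a, a stress sensor, 5.58-fold, with adjusted p-values from 2.33e-08 to 3.46e-07. Hspb1, the small heat shock protein, rose 2.49-fold (adjusted p = 4.04e-07) and Gadd45g was also called. Sprr1a was not matched to a probe here.

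**Figure D3:**
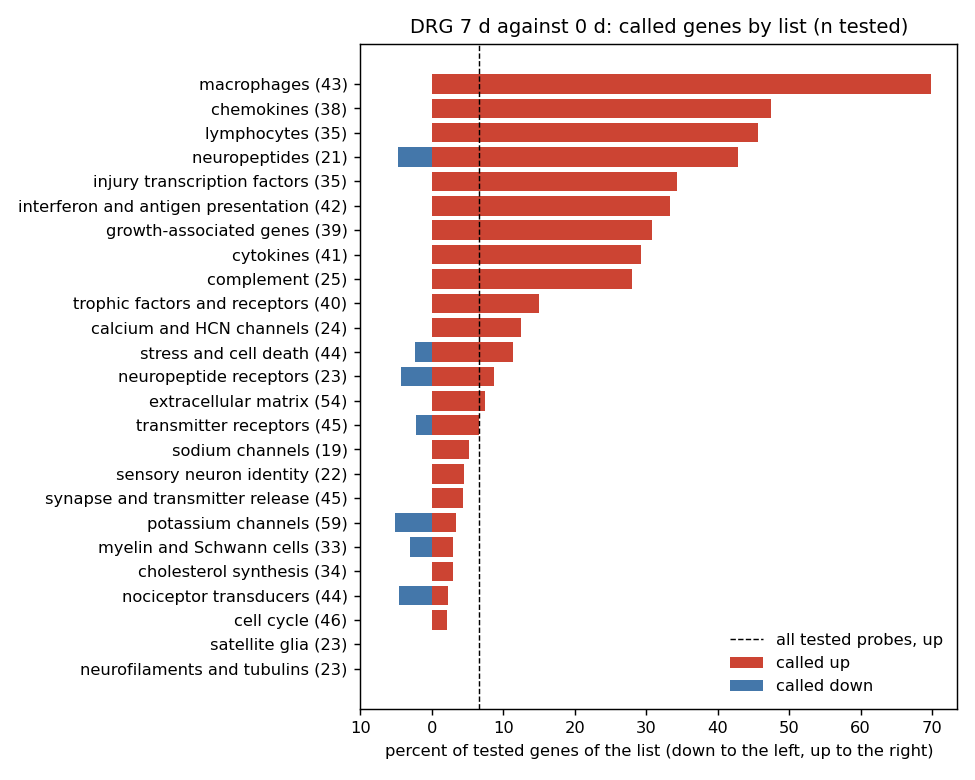
Percent of the tested genes of each list that were called up (red, right) or down (blue, left) at 7 d against 0 d, with the number tested in brackets and the share of all probes called up, 6.58%, as a dashed line. Macrophage genes had the largest share, 30 of 43, whereas satellite glia, neurofilaments and tubulins had no call.

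Ion channels gave few calls, and the potassium channels lay mostly below their 0 d levels. Of 59 tested potassium channel genes 3 fell, 2 rose and 54 were not called, but 35 had all 3 arrays at 7 d below all 3 at 0 d against 9 the other way, and the median was -0.38 (-0.52 to -0.35 under the other scalings). Over all tested probes, by comparison, 6051 lay wholly below and 10408 wholly above. The 11 neuron markers had a median of -0.32, with 8 wholly below 0 d, and the channels were not tested against them. Kcns1, a silent subunit that modifies delayed rectifiers, read 2.6, 2.44 and 2.16 before and 1.35, 1.11 and 1.31 at 7 d, a fall of 2.21-fold (adjusted p = 8.05e-05). Kcng1, another silent subunit, fell 2.67-fold, from -1.22, -1.25 and -1.67 to -2.86, -2.95 and -2.58 (adjusted p = 0.000256). Kcns3 was at the 2-fold limit, with a log2 change of -1.0 (adjusted p = 0.000249), and was not called under the other scalings.

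Kcnd3, a channel of the transient A-type current, moved the other way, from -2.2, -2.4 and -2.22 to 0.6, 0.08 and 0.17, a rise of 5.88-fold (log2 change 2.56 ± 0.2 SE, adjusted p = 3.42e-06). Of the Shaker-type channels, Kcna2 changed by -0.71 and Kcna1 by -0.34 (adjusted p = 0.00887 and 0.00843), each under 2-fold.

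Of 19 genes of sodium channel subunits and their partners only Scn3a, the channel subunit of embryonic neurons, was called. It read -0.48, -0.45 and -0.43 before and 1.12, 1.14 and 1.05 at 7 d, a rise of 2.94-fold (log2 change 1.56 ± 0.15 SE, adjusted p = 2.77e-05). The nociceptor channels Scn10a and Scn11a changed by -0.57 and -0.67 (adjusted p = 0.00295 and 0.00156), with readings of 5.06, 5.03 and 4.93 before and 4.53, 4.31 and 4.48 at 7 d for the first and 6.21, 6.11 and 6.26 before and 5.5, 5.5 and 5.57 at 7 d for the second. Both lay below 0 d on every array without reaching 2-fold, whereas Scn9a overlapped (-0.21, adjusted p = 0.236). Of 24 calcium and HCN channel genes 3 were up, Cacna2d1 above and the dim Cacna1i and Cacng8. Cacna1e was not called on its brightest probe (0.60, adjusted p = 0.223). Its dimmer probes gave 2.31, 1.29 and 0.55 (adjusted p = 3.79e-05, 0.0279 and 0.408).

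Of 44 tested receptors and transducers of sensory neurons 1 rose, 2 fell and 41 were not called, with a median of -0.19. Mrgprx1, an itch and pain receptor, read -2.32, -2.33 and -2.35 before and -3.81, -3.25 and -3.53 at 7 d, a fall of 2.29-fold (adjusted p = 0.000227), and Htr1d, a serotonin receptor, fell 2.03-fold (adjusted p = 0.000156), a call not made without array 1 at 0 d (log2 change -0.94). The call of Mrgprx1 was lost in both normexp settings. Prokr1 was up from dim values with a log2 change of 1.07 (adjusted p = 0.00753), but not under quantile normalization. Trpv1, the capsaicin receptor, read 0.73, 0.83 and 0.68 before and -0.01, 0.22 and 0.38 at 7 d and changed by -0.55 (adjusted p = 0.0322), and P2rx3, the ATP receptor, overlapped between the groups (-0.15, adjusted p = 0.466). In 45 transmitter receptor genes 3 rose (6.67%) and 1 fell (2.22%), against 6.58% and 0.326% of all tested probes, so that the share of rises was near that of all probes. Among them were Gabra5 and Gabrb1, GABA receptor subunits, up 2.7- and 2.42-fold (adjusted p = 2.03e-05 and 1.05e-05). The call of Gabrb1 was lost in both normexp settings, and that of Gabra5 with normexp and quantile normalization.

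Of 40 trophic factors and receptors 6 rose (15% against 6.58% of all tested probes) and none fell. Csf1, the macrophage growth factor, which injured neurons are known to make, read 0.1, 0.28 and 0.48 before and 2.28, 2.18 and 2.22 at 7 d, a rise of 3.83-fold (log2 change 1.94 ± 0.11 SE, adjusted p = 1.39e-07). Gfra1, the GDNF co-receptor, rose 2.08-fold, from 4.28, 4.26 and 4.29 to 5.31, 5.36 and 5.32 (adjusted p = 0.000123). Il6 was not well above background at 0 d and rose at least 2.42-fold in the scaling used here (adjusted p = 4.92e-05). Its log2 change ranged from 0.94 to 4.2 over the settings tried, without a call in the normexp settings. Fgf2 and Il13ra1 were also among the rises. Bdnf changed by -0.08 (adjusted p = 0.587).

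Among 44 stress and cell death genes 5 rose (11.4%) and 1 fell (2.27%), against 6.58% and 0.326% of all tested probes. Cdkn1a, an inhibitor of the cell cycle, read 0.07, -0.08 and -0.16 before and 2.68, 2.64 and 2.51 at 7 d, a rise of 6.36-fold (log2 change 2.67 ± 0.14 SE, adjusted p = 7.23e-08). Hrk, a pro-apoptotic protein of neurons, read -1.51, -1.58 and -1.5 before and 0.89, 0.56 and 0.55 at 7 d, a rise of 4.58-fold (log2 change 2.2 ± 0.14 SE, adjusted p = 4.88e-07). Trib3, a target of the stress response, rose 2.67-fold (adjusted p = 7.69e-05). Ddit4 was the fall (-1.08, adjusted p = 0.0119) and was not called without array 1 or 2 at 0 d or array 1 at 7 d.

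Glial and cytoskeletal genes had few calls. None of 23 satellite glia genes and none of 23 neurofilament and tubulin genes was called, with medians of -0.05 and -0.06. The largest departures were Slc1a2, a glutamate transporter, at 1.05 (adjusted p = 0.0647), and Nefl, the light neurofilament, at -0.72 (adjusted p = 7.84e-05), which read 6.65, 6.5 and 6.48 before and 5.7, 5.86 and 5.91 at 7 d. Gfap, the marker of reactive glia, gave 0.87 (adjusted p = 0.0963), and its other probe was called at 1.21. Tubb6, a tubulin, gave 0.51 (adjusted p = 0.00427) on its brightest probe, and a dimmer probe was called at 1.26 (adjusted p = 8.95e-06). Of 33 myelin and Schwann cell genes Mbp fell (-1.02, adjusted p = 0.00486), a call that its other probe at -0.85 did not share. Marker sums moved beside it. That of 6 markers of central oligodendrocytes, Mbp among them and 2 of them not well above background on any 0 d array, was 20.3 to 30.1 at 0 d and 12.6 to 14.1 at 7 d, and that of 8 satellite and Schwann cell markers was 194 to 222 and 159 to 173. Since Mbp is itself part of the first sum, that sum is not separate from its fall. The median change of those 6 markers was 1.035 (0.17 to 1.0 under the other scalings), with 4 above 0, 1 called up and 1 called down. The call of Mbp was lost in both normexp settings. The part of these cell types in the fall of Mbp was not tested.

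Immune genes made up the broadest group of rises. Of 43 macrophage genes 30 rose, none fell and 13 were not called, with a median of 1.47 against 0.08 over all probes, and 36 had all 7 d arrays above all 0 d arrays. The genes of class II antigen presentation had the largest changes of the list. RT1-Da, a class II chain, read 0.91, 1.0 and 1.2 before and 4.13, 4.09 and 4.43 at 7 d, a rise of 9.04-fold (log2 change 3.18 ± 0.15 SE, adjusted p = 4.91e-08). Cd74, the invariant chain, read 1.84, 1.98 and 2.09 before and 4.9, 4.75 and 5.0 at 7 d, a rise of 7.55-fold (log2 change 2.92 ± 0.18 SE, adjusted p = 4.97e-07). RT1-Db1 rose 6.73-fold (adjusted p = 1.39e-07).

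The other macrophage genes had smaller changes. C1qa, of the first complement component, read 1.84, 2.36 and 2.93 before and 4.16, 4.3 and 4.1 at 7 d, a rise of 3.5-fold (log2 change 1.81 ± 0.23 SE, adjusted p = 0.000227). Cx3cr1, the fractalkine receptor, was well above background on 2 arrays at 0 d and rose 5.62-fold (adjusted p = 9.31e-05), with a log2 change that ranged from 1.425 to 2.926 over the settings tried. For C1qa, Cx3cr1, Fcgr3a and Ms4a7 array 3 was the highest of the 0 d arrays and array 1 the lowest. The list's summed linear signal was 257 to 296 at 0 d and 459 to 473 at 7 d. Without any 1 array 25 to 33 of the list were up, and 21 to 28 under the other scalings.

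In 35 lymphocyte genes 16 rose and none fell, with a median of 0.99, but most were dim, and the list's summed signal was only 3.02 to 4.09 at 0 d and 6.18 to 6.52 at 7 d. Gzmb, granzyme B, was well above background on 2 arrays at 0 d and read -5.66, -6.17 and -3.93 before and -0.11, 0.52 and 0.38 at 7 d, a rise of 45.8-fold (log2 change 5.52 ± 0.43 SE, adjusted p = 3.59e-06), and its 3 probes ranged from 1.28 to 5.52. Cd8a, the co-receptor of cytotoxic T cells, was not well above background at 0 d and rose at least 1.41-fold in the scaling used here (adjusted p = 0.000137). Its log2 change ranged from 0.48 to 2.37 over the settings tried, without a call in the normexp settings. With normexp correction 2 to 3 lymphocyte genes were up, and 11 with quantile normalization. Of the 15 well above background on all 6 arrays 3 were up, with a median of 0.45.

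Of 38 chemokine genes and receptors 18 rose and none fell, with a median of 1.1, while under the other scalings 10 to 17 rose and the median was 0.43 to 0.91. Xcl1, lymphotactin, was not well above background at 0 d and read -6.97, -7.06 and -5.46 before and -1.5, -1.53 and -1.72 at 7 d, a rise of at least 18.8-fold in the scaling used here (adjusted p = 8.92e-07). Its log2 change ranged from 2.48 to 5.43 over the settings tried. Ccl17 was well above background on 1 array at 0 d and rose (adjusted p = 2.03e-07), with a log2 change of 4.61 that ranged from 3.06 to 4.74 over the settings tried. Cxcl13, a B cell attractant, spread over 3 units at 0 d, with -2.33, -0.02 and 1.09 before and 3.21, 3.79 and 3.08 at 7 d, a rise of 13.8-fold (log2 change 3.78 ± 0.62 SE, adjusted p = 0.00109). In 41 cytokine genes 12 rose and none fell, and 7 to 10 rose under the other scalings. The largest rise of the list was that of Il24, of the IL-10 family, at -4.46, -4.38 and -4.1 before and 1.1, 1.01 and 0.87 at 7 d, a rise of 39.7-fold (log2 change 5.31 ± 0.19 SE, adjusted p = 3.48e-09). Il1r2, the decoy receptor for interleukin-1, rose 9.7-fold (adjusted p = 1.57e-07). Of 25 complement genes 7 rose, none fell, and C3, the central component, read -0.88, -0.55 and -0.0029 before and 1.62, 1.5 and 1.31 at 7 d, a rise of 3.88-fold (log2 change 1.96 ± 0.23 SE, adjusted p = 0.00011).

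Interferon-stimulated and class I presentation genes formed a less stable group. Of 42 tested genes 14 rose and none fell, with a median of 0.85. Ifit3 read -3.43, -4.3 and -2.32 before and -1.49, -1.07 and -2.05 at 7 d (1.81 ± 0.57, adjusted p = 0.0367) and Mx1, an antiviral GTPase, -1.49, -1.54 and 0.27 before and 0.46, 1.29 and 0.76 at 7 d (1.76 ± 0.51, adjusted p = 0.0265). On array 3 at 0 d both genes were 1 unit or more above the other 0 d arrays. The count was 26 without that array, 4 without array 1 or without array 2 at 0 d, and 5 without array 2 at 7 d.

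Other lists had few calls, with 2.17% to 7.41% of their genes called up and none down, against 6.58% and 0.326% of all tested probes. In 54 extracellular matrix genes 4 rose, all matrix metalloproteinases, of which Mmp16, a membrane-bound member, read 0.33, -0.07 and -0.13 before and 2.04, 2.17 and 2.01 at 7 d, a rise of 4.09-fold (log2 change 2.03 ± 0.15 SE, adjusted p = 1.60e-06), and Mmp3 and Mmp12 rose from values well above background on 1 array each at 0 d (adjusted p = 1.71e-06 and 3.16e-07). Their log2 changes of 4.35 and 3.61 depended on the treatment of background and ranged from 1.93 to 4.8 for Mmp3 and from 1.34 to 3.8 for Mmp12 over the settings tried. In 46 cell cycle genes 1 rose, Mcm5, with a median of -0.25 against 0.08 over all probes, and 19 lay wholly below 0 d and 5 wholly above. In 34 cholesterol genes 1 rose, Abca1, the cholesterol exporter, 2.45-fold (adjusted p = 1.53e-06), and 16 lay wholly below 0 d and 4 wholly above. Over all 34968 tested probes 6051 lay wholly below and 10408 wholly above. In 45 synapse genes 2 rose, Gch1, the first enzyme of tetrahydrobiopterin synthesis, 3.69-fold (adjusted p = 4.70e-07), and the dim Nos1. In 22 factors of sensory neuron identity Neurod1 rose, well above background on 1 array at 0 d.

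The 15 largest rises among bright probes also held genes outside the lists. Hamp, hepcidin, the iron-regulating peptide, read -4.14, -3.94 and -3.76 before and 2.81, 2.6 and 2.39 at 7 d, a rise of 93.6-fold (log2 change 6.55 ± 0.18 SE, adjusted p = 4.79e-10). Has1, a hyaluronan synthase, read -5.56, -3.83 and -4.56 before and 0.63, 0.69 and 0.66 at 7 d, a rise of 39.7-fold (log2 change 5.31 ± 0.31 SE, adjusted p = 2.81e-07). Serpina3n, a serine protease inhibitor, read 0.17, 0.73 and 0.7 before and 5.33, 5.63 and 4.64 at 7 d, a rise of 25.5-fold (log2 change 4.67 ± 0.25 SE, adjusted p = 1.09e-07). Pde6b, a phosphodiesterase known from rods, rose 20.5-fold (adjusted p = 3.06e-09), and Pabpnl1 58.8-fold with a large error (log2 change 5.88 ± 1.32, adjusted p = 0.00766).

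The falls were small. Depp1, a FOXO target, read 1.07, 1.3 and -0.2 before and -1.47, -1.24 and -1.61 at 7 d, a fall of 4.47-fold (adjusted p = 0.000483). Ckmt2, the muscle mitochondrial creatine kinase, fell 3.48-fold, from 1.72, 2.55 and 2.32 to 0.42, 0.6 and 0.17, and Abra, a striated muscle protein, 2.64-fold (adjusted p = 0.00278 and 0.00182). Both were highest on array 2 at 0 d, as were the muscle markers, and the part of muscle tissue in these falls was not tested. Without that array they were still called. Per2, a circadian clock gene, read 0.03, -0.61 and -0.72 before and -2.0, -1.83 and -1.82 at 7 d, a fall of 2.74-fold (adjusted p = 6.13e-05). Nkx6-2, a homeobox factor of oligodendrocytes, fell 2.69-fold (adjusted p = 2.48e-06). Its log2 change ranged from -1.77 to -0.64 over the settings tried, and its call was lost in both normexp settings. The oligodendrocyte marker sum given above, which includes Mbp, was lower, while the median change of those markers was 1.035 (0.17 to 1.0 under the other scalings). Their part in the fall of Nkx6-2 was not tested. Inhbb, the activin beta B chain, fell 2.54-fold on 1 probe (adjusted p = 6.64e-05), but its brightest probe changed by 0.07 (adjusted p = 0.781). Amigo3 and Lypd1 fell 2.39- and 2.38-fold (adjusted p = 0.000135 and 0.000119). The log2 change of Lypd1 ranged from -1.51 to -0.70 over the settings tried, and its call was lost in both normexp settings. The number of falls was 238 without array 1 at 0 d against 114 with it.

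The 7 d values were set beside the other days, all of which share the 3 arrays at 0 d. Against them 2600 probes rose and 59 fell after 1 d, 2113 and 177 after 4 d, and 4553 and 161 after 14 d. The log2 change of Vip was 4.45 on the first of these days, then 8.03, 8.13 and 8.18 in order of time. Gal followed with 1.27, 4.18, 4.32 and 4.14, and Npy with -0.41, 3.05, 3.79 and 3.9. Atf3, by contrast, had its highest value at 1 d, with 4.53, 4.36, 4.13 and 4.23. Of the macrophage list 1, 22, 30 and 26 genes were up at 1, 4, 7 and 14 d, and of the interferon list 0, 1, 14 and 1.

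**Figure D4:**
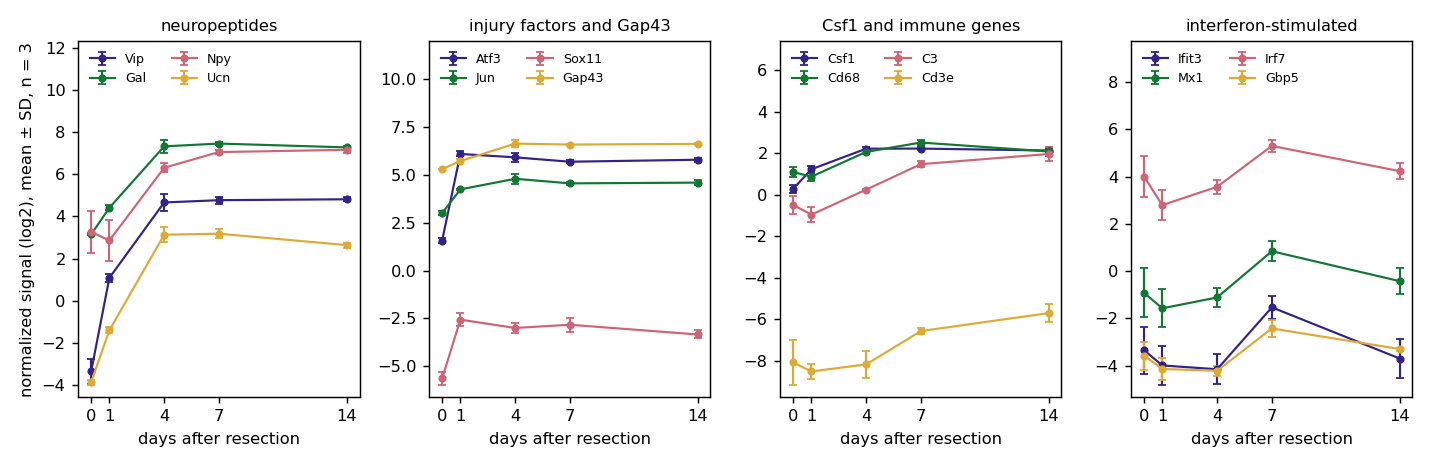
Normalized signal (log2, mean ± SD of 3 arrays) of 16 genes in DRG at 0, 1, 4, 7 and 14 d after resection, in 4 panels by group. Atf3 and Sox11 had their highest mean at 1 d, Vip rose from 1 to 4 d and then stayed within 0.2, and the 4 interferon-stimulated genes had their highest mean at 7 d.

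Between 4 and 7 d few probes differed. Of 34968 probes 48 (0.137%) were higher and 14 (0.04%) lower at 7 d. The largest rises were Ifi203 (2.42, adjusted p = 0.0403), an interferon-induced protein, RT1-DOa (1.95, adjusted p = 0.0128), a class II chain, and Rsad2, viperin (1.84, adjusted p = 0.0344), followed by Gbp5, a guanylate-binding protein (1.79, adjusted p = 0.0247), and Ddx58, the sensor RIG-I (1.78, adjusted p = 0.0443). The values of Rsad2 and Ddx58 come from a probe that is not their brightest. The falls were led by Cd163 (-1.32, adjusted p = 0.00929) and Lyve1 (-1.28, adjusted p = 0.0403), both of resident tissue macrophages, and Per2 (-1.2, adjusted p = 0.0125). The split was 7 and 0 with normexp and the 75th percentile and 56 and 2 with normexp and quantile normalization. It moved with single arrays, to 127 and 455 without array 1 of 4 d, 9 and 3 without array 2, 16 and 5 without array 3, and, for the 7 d arrays in turn, to 10 and 9, 11 and 4, and 4 and 2. The array of 7 d scanned on the day of the 4 d arrays gave 42 up and 34 down against 4 d, where this lone array is assumed to vary like the other groups. The comparison gave 0 calls when only its 6 arrays were fitted, where the methods' t-test gave 256 up and 192 down without adjustment of p and none after it.

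Between 7 and 14 d 11 probes (0.0315%) were higher and 23 (0.0658%) lower at 14 d. Higher were Hbb, beta-globin (1.09, adjusted p = 0.0379), and Ambn (1.09, adjusted p = 0.0202). Lower were Nr1d1, a clock repressor (-1.37, adjusted p = 0.0198), Grem1, a BMP antagonist (-1.31, adjusted p = 0.0214), B3gnt7 (-1.3, adjusted p = 0.021), Hamp (-1.23, adjusted p = 0.021) and Mon1b (-1.23, adjusted p = 0.021). Against arrays 2 and 3 of 7 d alone, which were scanned with those of 14 d, the counts were 622 and 23. None was called without array 2 or array 3 of 7 d, 2 and 0 without array 1 of 14 d, and 1 and 0 without array 3. With quantile normalization the split was 13 and 65, and with the authors' matrix 15 and 75. Limited to the 6 arrays limma called 0, and the methods' t-test 217 and 64 without adjustment.

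Ganglia and nerve differed widely in their response. The change at 7 d was larger in DRG than in SN for 2455 of 33796 probes (7.26%) and smaller for 2720 (8.05%), by the interaction in 1 limma fit. Which side was larger depended on the scaling, with 2647 and 2239 under quantile normalization, 2649 and 2261 with the authors' matrix, and 2150 and 3079 when only probes well above background set the 75th percentile. Vip rose in DRG and fell in SN, where it read -0.60, -1.72 and -0.32 at 0 d and -2.71, -3.22 and -3.31 at 7 d, a difference of 10.33 ± 0.43 (adjusted p = 8.36e-14). Gal differed by 5.53 and Atf3 by 3.94 (adjusted p = 3.53e-15 and 8.17e-14), while Sox11 and Nts did not pass this test (adjusted p = 0.0804 and 0.442). The change was smaller in DRG than in SN for 40 of 46 cell cycle genes and 24 of 33 lymphocyte genes, and larger for none of either list. For 43 macrophage genes it was smaller for 7 and larger for 5. With slide as a fixed block, an alternative chosen after seeing the data that compares the tissues on the 2 slides holding both, the counts were 2325 and 2301.

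**Figure D5:**
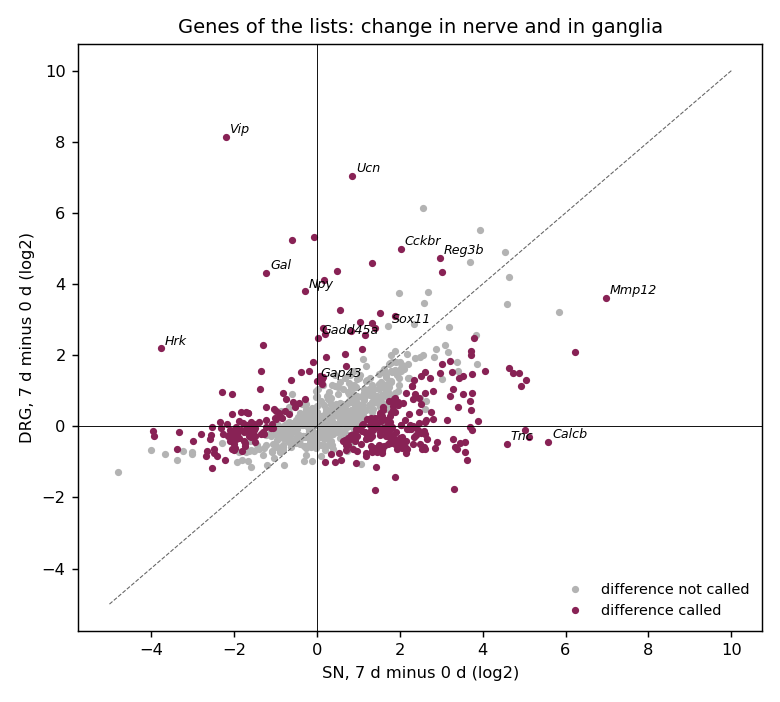
Change from 0 d to 7 d (log2) in DRG (vertical) against SN (horizontal) for 871 tested genes of the lists, with the line of equal change dashed and the 341 genes whose changes differed in purple. Of these 135 lay above the line, Vip and Ucn farthest, and 206 below it.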

How the data were processed

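Total RNA labelled with Cy3 was hybridized to 1-colour Agilent whole-genome rat arrays. The intensity values were read by the authors with Agilent Feature Extraction and, per the file headers, are background-subtracted and detrended within an array only. The log2 values of the authors' deposited matrix have the same distribution on all 30 arrays, as after quantile normalization, and served as an alternative. Here log2 processed intensity was averaged over unflagged spots and the 75th percentile of 41012 non-control probes subtracted per array. A probe was tested if every array of at least 1 DRG time point measured it well above background. All 15 DRG arrays entered 1 fit in limma 3.58.1 under R 4.3.3 with statmod 1.5.0 and data.table (version 1.17.8). Calls needed a change over 2-fold and an adjusted p (Benjamini-Hochberg) below 0.05, and the tissue comparison used all 30. The fit was tested on simulated data. A gene with several probes is given by the brightest. Symbols come from the array annotation (rn4), updated through RefSeq accessions, of which 16336 of 21261 were found in the reference table (47357 genes). Promoter windows are from RefSeq (GRCr8).

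Gene lists and comparisons were chosen with earlier results of these data known. Named are up to 8 called genes per list by size of change, a set of genes known from nerve injury, and the 15 largest rises and falls among bright, non-overlapping probes with a symbol (5 in each direction for the other comparisons), of which not all are printed. Grp, Fosl1, Smad1, Crem, Fosb, Gadd45g, Slc1a2, Nefl, Kcna1 and Kcna2 were named after their values were seen. Lists are described by counts and medians, without a test of the list. The arrays carry no read depth, their number limits the precision, and no spot was saturated. Slide, scan day, scaling, filters and single arrays were varied. Replicate numbers showed no pairing of the 0 d with the 7 d arrays of DRG, where same-numbered deviations correlated at -0.17, -0.08 and -0.07. A pairing of DRG with SN arrays of the same day was not checked, and the tissue comparison treats them as independent. Results of some members are not reported here.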

Additional observations from a re-analysis of the deposited data

Results flagged for a closer look

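For 10 genes the change at 7 d differed between ganglia and nerve in the direct test of the difference (limma interaction, log2 change in DRG minus log2 change in SN, all adjusted p-values 1.51e-05 or lower). They were taken as the 5 largest differences in each direction among bright probes.

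Higher in DRG were Vip at 10.33, Ucn, urocortin, at 6.19, Hrk at 5.96, Hamp at 5.92 and Krt19, a keratin, at 5.64. Ucn rose by 7.05 in DRG and changed by 0.86 in SN, and Hamp rose by 6.55 in DRG and changed by 0.63 in SN. Hrk rose by 2.20 in DRG and fell by 3.76 in SN, and Krt19 changed by 3.61 and -2.03.

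Lower in DRG were Mmp13, a collagenase, at -6.20, Calcb, encoding beta-CGRP, at -6.03, Crabp1, a retinoic acid-binding protein, at -6.02, Gpr83 at -5.11 and Tnc, tenascin C, at -5.08. Calcb changed by -0.44 in DRG against 5.59 in SN, where it read -5.89, -5.78 and -4.57 at 0 d and 0.11, 0.29 and 0.13 at 7 d. Crabp1 changed by -0.35 against 5.66, Gpr83 by -0.09 against 5.02 and Tnc by -0.49 against 4.59. Mmp13 spread with an SD of 2.31 over the 0 d arrays of DRG, on which bone markers also spread, and the part of bone tissue in its difference was not tested.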

How the results depend on the processing

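Single genes were followed in all settings but the fit without the fold threshold and limma's test against a 2-fold change. These settings kept the direction of the 144 genes followed, over 2877 values. Of 133 called genes 66 kept their call in every such setting that tested them. At most 47 were lost in 1 setting (normexp and the 75th percentile). With both groups well above background only 107 of the 144 were tested, and a gene left out there was not counted as lost. For DRG 7 d against 0 d, 2416 probes were called, and 498 with normexp and the 75th percentile, 476 with normexp and quantile normalization, 801 with both groups well above background, 1282 with the methods' t-test after adjustment, 8332 without the fold threshold and 285 with treat, limma's test against a 2-fold change. The genes called in the lists, 163, were 100, 103 and 105 with normexp and the 75th percentile, normexp and quantile, and the adjusted t-test. For 7 d against 4 d the 62 calls became 7 with normexp and the 75th percentile, 40 without a filter, 0 with only the compared arrays, 448 with the unadjusted and 0 with the adjusted t-test, 226 without the fold threshold, 0 with treat, and 6 to 582 when 1 array was left out. For 14 d against 7 d the 34 calls became 78 with quantile normalization, 0 with normexp and the 75th percentile, 90 with the authors' matrix, 22 without a filter, 0 with only the compared arrays, 281 and 0 with the t-test, 645 with scan day as a block, 187 without the fold threshold, 0 with treat, and 0 to 645 when 1 array was left out. The 5175 probes that differed between DRG and SN became 2284 and 2616 with the normexp settings, 12869 without the fold threshold and 1303 with treat. With the replicate number as a block, 7 d against 0 d gave 2161 up and 110 down. In that setting 7 d against 4 d gave 36 calls and 14 d against 7 d 4 calls, and DRG against SN gave 2444 and 2684. A pairing by number was not seen between 0 d and 7 d of DRG and was not checked for the other arrays. With normexp and the 75th percentile the median change of all probes was -0.18 for 7 d against 4 d and 0.25 for 14 d against 7 d. The causes were not tested. Dim probes limit the rises, since 1608 of 2302 were not well above background on every 0 d array.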
